A study of Egretta garzetta and Nycticorax nycticorax with 12 samples.

Results

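Some genes of the olfactory epithelium (OE) had a substantial mean expression in a heron species and yet were listed at exactly 0 in at least 1 bird of it. These zero-listed genes were chosen within each species by an average of 10 TPM or more (TPM is a share of the library corrected for transcript length and set to the same total in each bird) over the 6 birds, together with a TPM of exactly 0 in 1 or more of them. In the black-crowned night heron (*N. nycticorax*) 38 of 13361 genes met the rule, out of 8893 averaging 10 TPM or more, and in the little egret (*E. garzetta*) 26 of 16585, out of 8858 averaging as much. None of the genes that the paper names in its tables of vision and olfactory receptor (OR) genes met the rule. The levels and the zeros therefore chose the genes, and both are given as a description. A test was run only between adults and nestlings, since the rule did not use the stage. It took the same TPM values as the rule, however. A 0 beside high values widens the spread within a stage, so the rule bears on the outcome of the test.

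The birds were wild individuals at 2 stages. Adult *N. nycticorax* (birds 4, 5 and 6) had the green-black plumage and olfactory bulbs of adult size, and adult *E. garzetta* (birds 4, 5 and 6) likewise had fully grown bulbs. Nestling *N. nycticorax* (birds 1, 2 and 3) and nestling *E. garzetta* (birds 1, 2 and 3) were small chicks without developed bulbs, taken from separate nests. Each of the 12 birds gave 1 library, no bird was treated, and ages in days were not given. The adults were caught at another place than the chicks, so that stage and place cannot be told apart.

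The OE is a layered tissue in the nose. It holds olfactory sensory neurons with non-motile cilia, supporting cells and basal stem cells, and it borders respiratory epithelium, whose ciliated cells carry motile cilia. A dissected piece holds all of these in shares that depend on where it was cut, and in bulk RNA a loss of cells of a type cannot be told apart from less RNA in each cell. A value of 0 in these tables means that StringTie, which was run here with reads assigned to annotated transcripts only, gave no read to the gene. It may be missing expression, or reads that went to another gene or to none, and each bird's value is therefore given rather than a mean with its error.

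Depth was similar over the birds. Between 10530972 and 16326012 read equivalents lay on annotated genes in each library. A read equivalent is 150 covered bases, the length of a read, and the number for a gene is its mean coverage multiplied by its coding length over 150. A floor of 3 read equivalents, which covers counting error only, corresponded to 0.161 to 1.46 TPM over the 49 gene and bird pairs at 0 in *N. nycticorax* and to 0.14 to 1.65 TPM over the 35 such pairs in *E. garzetta*. No exon of the gene was covered in any of these pairs, which follows from a TPM of 0. The OR genes listed by the paper summed to 3.38 to 70.4 TPM per bird over 61 genes in *N. nycticorax*. In *E. garzetta* they summed to 1.38 to 47.8 TPM over 132 genes. The paper listed them as expressed in the OE of these birds, so expression of them was given in advance. Photoreceptor genes from its vision list summed to 3.28 to 12.8 TPM (10 genes) in *N. nycticorax* and 15.9 to 29 TPM (13 genes) in *E. garzetta*. CNGB1, a subunit of the channel that carries the odour response, was above 0 in every bird, at 0.337 TPM in the lowest. These values do not check the identity of the tissue. Genes used by most cells, namely CTNNB1, GNB1, HDAC1 and RPL24, had values above 0 in all 12 birds (they were picked with their values known).

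Most zero-listed genes were at 0 in a single bird. This held for 33 of 38 in *N. nycticorax* and for 20 of 26 in *E. garzetta*, and no gene was at 0 in more than 4 birds. In *N. nycticorax* 1 bird accounted for most of them, nestling 2, in which 25 of the 38 genes were at 0, and 22 of these were at 0 in no other bird. In *E. garzetta* adult 5 stood out, with 12 of the 26 genes at 0 and 10 of them at 0 in that bird alone. Apart from these and smaller sets of 5, 3, 3, 2, 2 and 2 genes, each set of birds at 0 belonged to a single gene.

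**Figure D1:**
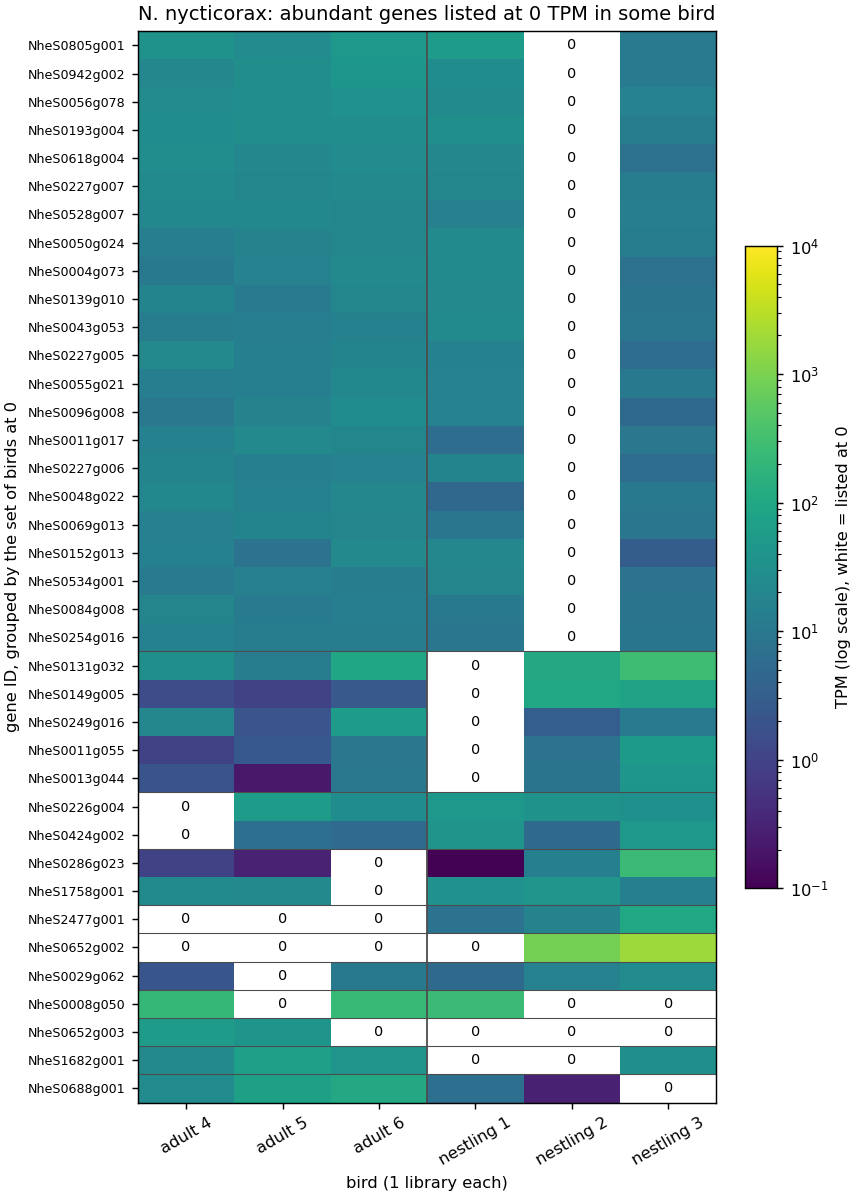
TPM of the 38 zero-listed genes of *N. nycticorax* (rows, by gene ID) in the 3 adults (left) and the 3 nestlings (right), 1 library each, on a log colour scale from dark (low) to light (high), with white cells marked 0 where the gene was listed at 0. Horizontal lines separate genes with different sets of birds at 0. The upper block holds the 22 genes at 0 in nestling 2 alone, which have moderate levels in the other 5 birds, lowest in nestling 3 in 20 of them.

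The 22 genes at 0 in nestling 2 alone were moderately expressed everywhere else. Adult 4 had a median of 17.7 TPM over them (10.1 to 36.8 TPM), adult 5 one of 16.8 TPM (7.98 to 29.6 TPM) and adult 6 one of 20.5 TPM (12.7 to 47 TPM). Nestling 1 had a median of 19.7 TPM (4.67 to 56.9 TPM) and nestling 3 one of 9.24 TPM (3.01 to 16.5 TPM). Nestling 3 was thus lower than the adults at the median, and it was the lowest of the 5 birds above 0 in 20 of the 22 genes.

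At the median level of the other 5 birds each would have received 60.4 to 404 read equivalents in nestling 2 (median 161). With that level rescaled for the lower general level of the library, the range was 27.1 to 185 (median 75.8), against a floor of 3. The limit of 10 TPM in the rule bears on these numbers. The genes had coding lengths of 228 to 942 bases (median 523.5).

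Among these 22, NheS0805g001 (scaffold 805, 88472 to 92857, minus strand, 2 exons, 228 coding bases) had the highest mean. It was at 36.8, 25.6 and 47 TPM in adults 4, 5 and 6, and at 56.9, 0 and 11.6 TPM in nestlings 1, 2 and 3. The longest was NheS0618g004 (scaffold 618, 224792 to 235483, plus strand, 6 exons, 942 coding bases), with 28.7, 20.8 and 25.3 TPM in the adults and 20.5, 0 and 7.39 TPM in the nestlings. In both genes nestling 2 stood apart from 5 birds that ranged within 5-fold of each other. The neighbour of NheS0618g004 on the same strand, NheS0618g003, was low in nestling 2 without being at 0, with 35.2, 26.1 and 41.4 TPM in the adults and 45.1, 3.51 and 27.6 TPM in the nestlings.

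Among zero-listed genes within 3 genes of each other on a scaffold, only 1 group shared its birds at 0, a run of 3 on scaffold 227 of *N. nycticorax*. NheS0227g005 (169875 to 172296, 4 exons), NheS0227g006 (176340 to 176959, 3 exons) and NheS0227g007 (186252 to 188776, 5 exons) follow each other on the plus strand, 4044 and 9293 bases apart. NheS0227g005 was at 22.9, 14.4 and 18.1 TPM in adults 4, 5 and 6 and at 15.5, 0 and 6 TPM in nestlings 1, 2 and 3. NheS0227g006 was at 17.7, 14.7 and 16.7 TPM in the adults and at 17.7, 0 and 6.01 TPM in the nestlings, and NheS0227g007 was at 24.5, 19.9 and 22.6 TPM in the adults and 20.2, 0 and 12.7 TPM in the nestlings. Nestling 3 was the lowest of the other 5 birds in all 3, as it was in 20 of the 22 genes at 0 in nestling 2 alone. The shared profile is thus not particular to this run. On one side the run bordered genes that were low in nestling 2, since NheS0227g004 was at 2.26 TPM and NheS0227g003 at 0.669 TPM there, against at least 8.98 TPM in each other bird. On the other side NheS0227g008 was at 37.9 TPM in nestling 2, within the range of 35.6 to 51.5 TPM of the other birds.

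The library of nestling 2, the bird with the most of these zeros, differed from the rest in several measures. Its median gene above 0 was at 9.31 TPM, against 20.7 to 27.1 TPM in the other 5 birds, and its 100 highest genes took 44.8% of all TPM, against 28.3% to 37.6%. Coverage leaned to the last exon: over genes with several exons, the median log2 ratio of the last to the first exon was 1.54 in nestling 2 and 0.21 to 0.49 in the other birds. The bird next to it in each of these measures was nestling 3, in which only 3 zero-listed genes were at 0. Among the other birds the measures thus did not follow the number of zeros. The level of a gene relative to its mean over the birds also fell with coding length in nestling 2, with a median of 0.896 for abundant genes under 300 bases and 0.297 for those of 2000 bases or more.

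Low values in nestling 2 reached well beyond the zero-listed genes. Of the 258 genes averaging 10 TPM or more whose lowest value was above 0 but under 5% of the mean, 229 had that lowest value in nestling 2. The share depended on the cut. Under 1% of the mean there were 18 such genes, 11 lowest in nestling 1 and 7 in nestling 2. Under 10% there were 745, of which 681 were lowest in nestling 2. HDAC1, a histone deacetylase, was at 25.3 TPM there, against 69.1 to 110 TPM in the other birds, whereas RPL24, a short ribosomal protein gene, was at 2372 TPM against 1075 to 1396 TPM. The part of these library measures in the 22 zeros was not tested. Without nestling 2, 15 genes of *N. nycticorax* met the rule, and all 15 were among the 38.

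**Figure D2:**
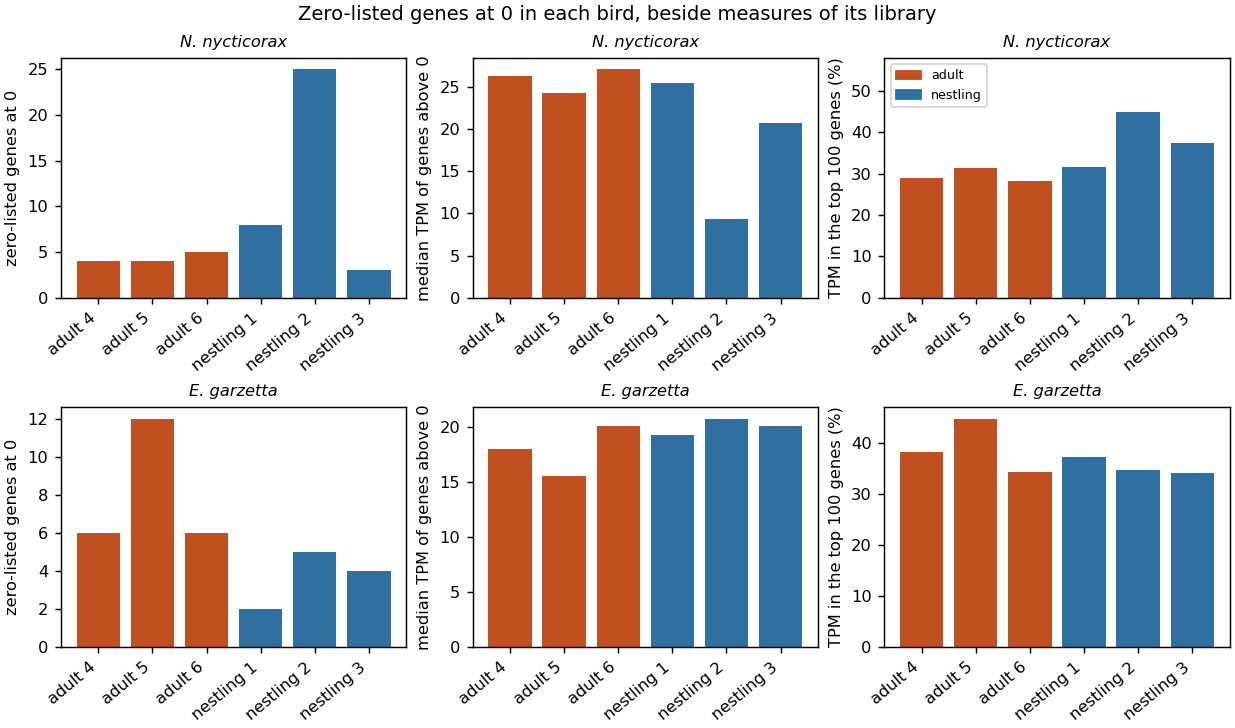
Number of zero-listed genes at 0 in each bird (left column), median TPM of the genes above 0 (middle) and share of TPM in the 100 highest genes in percent (right), for *N. nycticorax* (upper row) and *E. garzetta* (lower row), with adults in orange and nestlings in blue. Nestling 2 of *N. nycticorax* (25 genes at 0, median 9.31 TPM, 44.8%) and adult 5 of *E. garzetta* (12 genes at 0, median 15.6 TPM, 44.9%) have the most zeros, the lowest medians and the highest shares of their species.

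The remaining 16 genes of *N. nycticorax* had other sets of birds at 0. In 5 genes only nestling 1 was at 0, and the other birds varied widely. NheS0131g032 (scaffold 131, 2425714 to 2440781, plus strand, 12 exons, 1377 coding bases) was at 30.9, 13.1 and 85.1 TPM in adults 4, 5 and 6 and at 0, 103 and 283 TPM in nestlings 1, 2 and 3. NheS0149g005 (scaffold 149, 225243 to 228281, minus strand, 2 exons) was at 1.52, 0.964 and 2.44 TPM in the adults and at 0, 94.9 and 75 TPM in the nestlings. Both were thus highest in nestlings 2 and 3, and nestling 1 lay below every adult.

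In NheS0011g055 and NheS0013g044, also at 0 in nestling 1 alone, nestling 3 was highest with 53.5 and 43.3 TPM. The fifth, NheS0249g016, was highest in adult 6 with 56.5 TPM. Nestling 3 was also the highest bird in NheS0286g023 (scaffold 286, 532738 to 545184, minus strand, 8 exons), the longest zero-listed gene of *N. nycticorax* with 1689 coding bases. It was at 0.925, 0.296 and 0 TPM in the adults and at 0.108, 14.1 and 256 TPM in the nestlings, so that a single bird supplied nearly all of its mean.

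Such steep differences without a 0 were seen in other genes as well. Among genes of at least 10 TPM, the lowest minimum relative to the mean that was still above 0 was that of NheS0146g013, at 13.2, 57.6 and 33.9 TPM in the adults and 0.192, 170 and 431 TPM in the nestlings. NheS0181g036, with 96 coding bases, was next, at 1514, 334 and 4060 TPM in the adults and 18.5, 12520.4 and 33783 TPM in nestlings 1, 2 and 3. In both, as in NheS0131g032, nestling 3 was highest and nestling 1 lowest.

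Scaffold 652 held 2 genes that were at 0 in 4 birds each, and different birds were above 0 in them. NheS0652g002 (20206 to 20493, minus strand, 2 exons, 198 coding bases) had the highest mean of the zero-listed genes of *N. nycticorax*. It was at 0 in all 3 adults, and at 0, 904 and 1859 TPM in nestlings 1, 2 and 3, and it ranked 73 among the genes of nestling 3. NheS0652g003 (37444 to 48583, minus strand, 2 exons, 189 coding bases), the next gene at 16951 bases, was at 57.4, 38 and 0 TPM in adults 4, 5 and 6 and at 0 in all 3 nestlings. No bird was above 0 in both genes, and adult 6 and nestling 1 were at 0 in both. On the other side of NheS0652g002, at 7026 bases, NheS0652g001 (177 coding bases) was never at 0 but had the same 2 birds on top, with 43.9, 29.7 and 19.4 TPM in the adults and 3.16, 2787 and 5918 TPM in the nestlings.

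A further gene was at 0 in every adult. NheS2477g001, the only gene on scaffold 2477 (458 to 1254, plus strand, 2 exons, 264 coding bases), was at 0 in the 3 adults and at 8.02, 17.5 and 99.9 TPM in the 3 nestlings. The stages did not overlap in it, whereas in NheS0652g002 nestling 1 lay at 0 with the adults.

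Zeros in other combinations crossed the stages. NheS0008g050 (scaffold 8, 8931649 to 8935045, plus strand, 192 coding bases) was at 210.5, 0 and 243 TPM in adults 4, 5 and 6 and at 250.3, 0 and 0 TPM in nestlings 1, 2 and 3. Its 3 birds above 0 lay within 1.19-fold of each other, the smallest such range among the 38 genes, so that it was either clearly on or at 0. At the median of the other birds, 487 read equivalents would have been given to it in adult 5. NheS1682g001, the only gene on its scaffold, was at 22.6, 66.6 and 40.2 TPM in the adults and at 0, 0 and 30.6 TPM in the nestlings.

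In several genes a single 0 stood beside clear expression in most other birds. NheS0688g001, also alone on its scaffold, was at 25.6, 70.7 and 102 TPM in the adults and at 6.8, 0.286 and 0 TPM in the nestlings. NheS0226g004 was at 0, 57.3 and 27 TPM in adults 4, 5 and 6 and at 46.5, 37.3 and 32.3 TPM in the nestlings. NheS1758g001 was at 25.2, 22.1 and 0 TPM in the adults and at 34.6, 40.3 and 14.4 TPM in the nestlings. In the last pair of genes a single adult was at 0 while the other 5 birds were at 14.4 TPM or more. The 2 genes left were NheS0424g002, also at 0 in adult 4, and NheS0029g062, at 0 in adult 5.

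**Figure D3:**
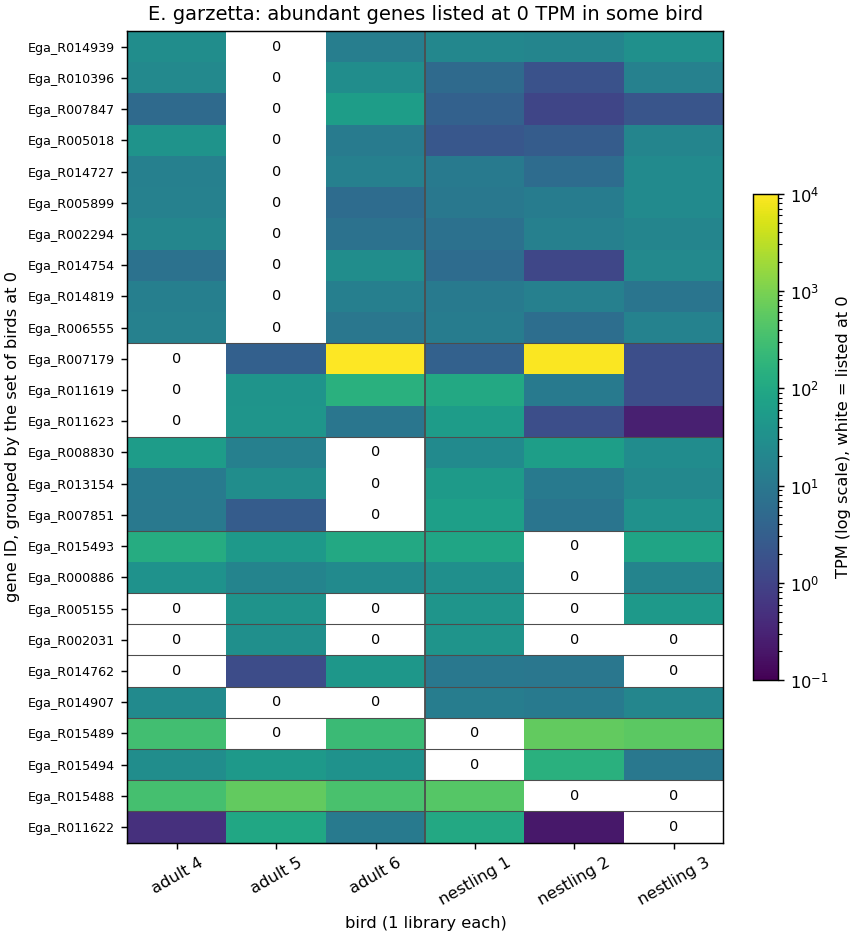
TPM of the 26 zero-listed genes of *E. garzetta* (rows, by gene ID) in the 3 adults (left) and the 3 nestlings (right), drawn as for the other species with a log colour scale and white cells marked 0. The upper block holds the 10 genes at 0 in adult 5 alone, and the brightest cells belong to Ega_R007179 in adult 6 (9803 TPM) and nestling 2 (9148 TPM).

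In *E. garzetta* the gene with the highest mean was also the most uneven one. Ega_R007179 (scaffold 3, 182729 to 183058, plus strand, 1 exon, 330 coding bases) was at 0, 3.4 and 9803 TPM in adults 4, 5 and 6 and at 3.55, 9148 and 1.58 TPM in nestlings 1, 2 and 3. A single gene was higher in adult 6, where this one took 0.98% of all TPM. The birds split into 2 at 9148 TPM or more and 4 at 3.55 TPM or less, with 1 bird of each stage on top. Its nearest neighbour, Ega_R007180 at 10920 bases, did not follow, with 38.8, 29.8 and 37.9 TPM in the adults and 33.1, 46.5 and 44.5 TPM in the nestlings. The files pair neither gene with a name.

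Overlap with a gene on the other strand was common among the zero-listed genes of *E. garzetta*. Of the 26, 8 (30.8%) overlapped such a gene, against 399 (4.52%) of the 8832 other genes averaging 10 TPM or more. In all 8 the overlap lay within exons, which follows from these genes and their partners having 1 exon each. It was so for 112 of the others. The annotation of *N. nycticorax* has no gene that overlaps another on either strand, so the 0 of 38 there carries no information. The labels name a library kit without saying that it keeps the strand, and the StringTie commands in the files set no strand option. Reads that lie wholly in the bases shared by a gene and its partner on the other strand therefore cannot be told apart. How StringTie divided them was not tested.

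The 8 genes form 3 pairs in which both genes were zero-listed and 2 cases in which only 1 of the pair was. Within the pairs, 2 kinds of profile were seen. In the first, 1 gene was at 0 where its partner was high, and the sum of both changed little. Ega_R015488 (scaffold 795, 20929 to 21228, plus strand, 1 exon, 300 coding bases) was at 343, 622 and 366 TPM in adults 4, 5 and 6 and at 473, 0 and 0 TPM in nestlings 1, 2 and 3. Ega_R015489 (20947 to 21228, minus strand, 1 exon), whose 282 coding bases all lie within it, was at 313, 0 and 253 TPM in the adults and at 0, 639.5 and 545 TPM in the nestlings. Each bird had at least 1 of the 2 genes well above 0. Their sum was 655, 622 and 618.5 TPM in the adults and 473, 639.5 and 545 TPM in the nestlings, a range of 1.39-fold.

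Another pair of this kind lies further on the same scaffold. Ega_R015493 (52376 to 52675, plus strand, 1 exon) was at 127, 47.8 and 102 TPM in the adults and at 85.7, 0 and 82.4 TPM in the nestlings. Ega_R015494 (52394 to 52678, minus strand, 1 exon), which overlaps it by 282 bases, was at 28, 50.4 and 36.2 TPM in the adults and at 0, 148 and 9.95 TPM in the nestlings. Both had their 0 in a bird in which the partner was at 85.7 TPM or more, and the sum ranged over 1.81-fold, between 85.7 and 155 TPM. One more overlapping pair close by, Ega_R015496 and Ega_R015497, has the same coding lengths of 285 and 300 bases. Ega_R015496, with a mean below 10 TPM, was at 0, 24.3 and 0 TPM in the adults and at 26.9, 0 and 0 TPM in the nestlings, while Ega_R015497 was above 0 in all 6 birds.

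Ega_R000886 (scaffold 112, 2476721 to 2477581, plus strand, 1 exon, 861 coding bases) had a partner that never was at 0. It was at 35.5, 18.4 and 24.2 TPM in the adults and at 30.7, 0 and 17.9 TPM in the nestlings. Ega_R000887 on the minus strand overlaps it by 843 bases, had the higher level of the pair in each bird and was at 192, 172 and 167 TPM in the adults and at 204, 252 and 197 TPM in the nestlings. The partner was highest in nestling 2, the bird in which Ega_R000886 was at 0, and the sum ranged over 1.33-fold, between 190 and 252 TPM. Most of that sum was the partner alone, which itself ranged between 167 and 252 TPM, so the sum says little about the smaller gene.

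In the other kind both genes of a pair were high and low in the same birds. Ega_R011622 (scaffold 487, 142861 to 143058, plus strand, 1 exon, 198 coding bases) was at 0.484, 94.3 and 11.2 TPM in adults 4, 5 and 6 and at 103, 0.211 and 0 TPM in nestlings 1, 2 and 3. Ega_R011623 (142945 to 143325, minus strand, 1 exon, 381 coding bases), which overlaps it by 114 bases, was at 0, 41.1 and 9.06 TPM in the adults and at 58.4, 1.56 and 0.271 TPM in the nestlings. Adult 5 and nestling 1 were the high birds in both, and their sum ranged over 596-fold, between 0.271 and 161 TPM. The overlapping pairs on both sides of it, Ega_R011620 with Ega_R011621 and Ega_R011624 with Ega_R011625, were likewise highest in nestling 1, at 19.7, 51.6, 25.8 and 56.2 TPM, and under 1.8 TPM in adult 4, nestling 2 and nestling 3.

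Ega_R011619 on the same scaffold (125124 to 132929, minus strand, 2 exons), matched to the RefSeq entry LOC104129765, was at 0, 38.8 and 149 TPM in the adults and at 106, 11.6 and 1.56 TPM in the nestlings. The 0 in adult 4 was shared with Ega_R011623, but adult 6 was its highest bird.

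The last overlapping gene, Ega_R014762 (scaffold 701, 43863 to 44105, minus strand, 1 exon, 243 coding bases), was at 0, 1.43 and 43.6 TPM in the adults and at 9.83, 9.69 and 0 TPM in the nestlings. Its partner Ega_R014761, which overlaps it by 216 bases, was at 1.05, 0.709 and 96.4 TPM in the adults and at 22.6, 21 and 1.26 TPM in the nestlings. Both were highest in adult 6, and the sum ranged over 133-fold. The preceding overlapping pair on that scaffold, Ega_R014759 and Ega_R014760, has the same coding lengths of 279 and 243 bases and was also highest in adult 6, at 31.9 and 28.1 TPM. Whether reads were shared between these repeated pairs was not tested, because no genome sequence was used here.

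**Figure D4:**
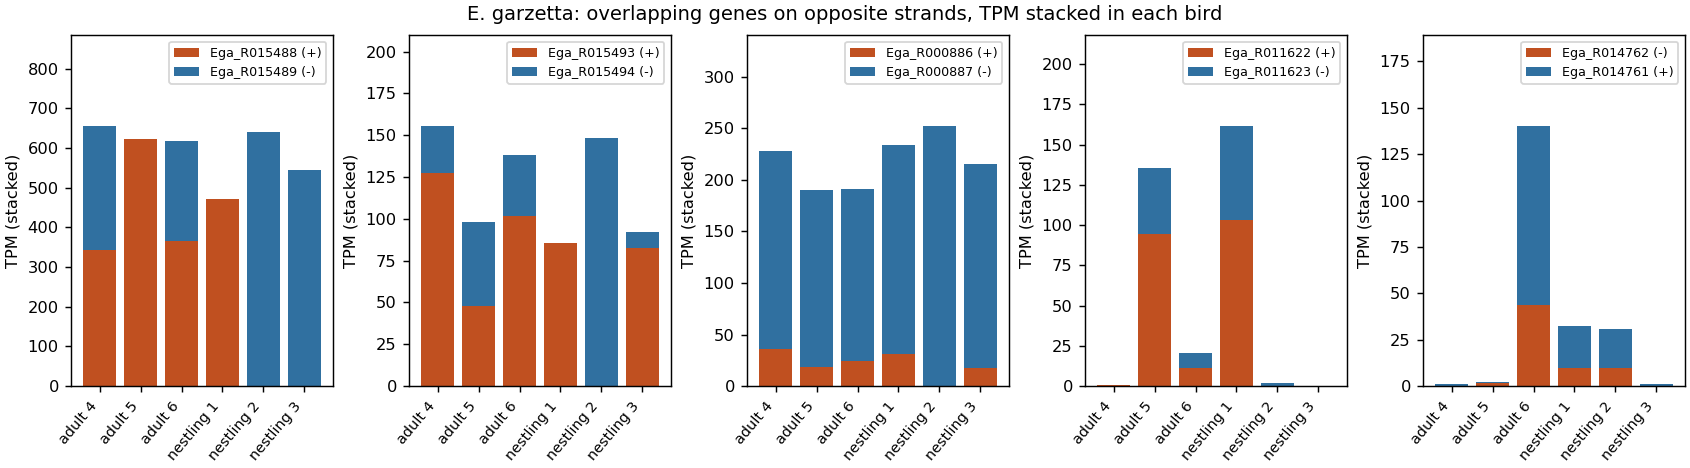
TPM of the 5 overlapping gene pairs of *E. garzetta* that include a zero-listed gene, stacked in each bird with the first-named gene in orange and its partner on the other strand in blue, in the 3 adults (left in each panel) and the 3 nestlings (right). In the first 2 panels the total is similar over the birds (1.39-fold and 1.81-fold ranges) while the shares change. In the next the partner makes up most of the total, and in the last 2 both genes are high and low in the same birds.

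Genes outside the overlapping pairs were also on in some birds and at 0 in others. Ega_R005155 (scaffold 233, 28699 to 32006, minus strand, 2 exons, 180 coding bases) was at 0, 36.2 and 0 TPM in adults 4, 5 and 6 and at 41.4, 0 and 51.7 TPM in nestlings 1, 2 and 3. Ega_R002031 (scaffold 140, 640840 to 645477, plus strand, 2 exons, 289 coding bases) was at 0, 31.5 and 0 TPM in the adults and at 38.8, 0 and 0 TPM in the nestlings. The birds above 0 lay within 1.43-fold and 1.23-fold of each other, and adult 5 and nestling 1 were above 0 in both. Ega_R015496 was above 0 in these 2 birds only, too.

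Of the 3 genes at 0 in adult 6 alone, Ega_R008830 had the highest mean, with 57.6, 14.9 and 0 TPM in the adults and 25.1, 62.2 and 26.8 TPM in the nestlings. Ega_R013154 was at 11.7, 27.7 and 0 TPM in the adults and at 52.5, 10.8 and 21.5 TPM in the nestlings. Ega_R007851 (scaffold 325, 2529052 to 2529331, plus strand, 177 coding bases) was at 10.6, 2.81 and 0 TPM in the adults and at 67.6, 8.89 and 33.6 TPM in the nestlings. Its neighbour Ega_R007850, with a mean below 10 TPM, was at 0 in adult 6 as well, and nestling 1 was the highest bird of both with 67.6 and 23 TPM. Ega_R014907 (scaffold 72, 733095 to 736084, plus strand, 2 exons) was at 24.3, 0 and 0 TPM in the adults and at 13.4, 11.2 and 19.7 TPM in the nestlings.

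The 10 genes of *E. garzetta* at 0 in adult 5 alone had median levels of 15.7 TPM in adult 4 and 13.9 TPM in adult 6, and of 8.77, 6.17 and 18.8 TPM in nestlings 1, 2 and 3. At the median of the other 5 birds they would have received 9.32 to 255 read equivalents in adult 5 (median 53.1), above the floor of 3 in each. With that level rescaled for the general level of the library, the range was 7.95 to 197 (median 41.3). The limit of 10 TPM, by which these genes were chosen, bears on these numbers. The longest was Ega_R005018 (scaffold 23, 2668191 to 2675921, plus strand, 12 exons, 1584 coding bases), at 36.3, 0 and 11.9 TPM in the adults and 2.27, 2.82 and 19.1 TPM in the nestlings. Ega_R005899 (scaffold 263, 50756 to 65622, minus strand, 11 exons, 1468 coding bases) was at 15.6, 0 and 5.87 TPM in the adults and at 10.2, 12.6 and 24.6 TPM in the nestlings. No exon of these long genes was covered in adult 5, which follows from their TPM of 0.

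The only gene in this set that could be given a symbol was Ega_R010396, whose ends match GNG13 in the RefSeq table. GNG13 encodes a gamma subunit of the G proteins and is known from mammals as a gene of olfactory sensory neurons and taste cells. It was at 22.3, 0 and 28.7 TPM in adults 4, 5 and 6 and at 5.31, 1.84 and 15.5 TPM in nestlings 1, 2 and 3. Adult 5 and nestling 2 were thus its lowest birds, and the same 2 birds had the lowest sums over the 132 OR genes listed by the paper. Those sums were 31, 1.52 and 28.6 TPM in the adults and 7.11, 1.38 and 47.8 TPM in the nestlings.

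Other genes of the tissue were low in adult 5 together with this set. SOX2, a transcription factor of supporting and stem cells, was at 141, 11.5 and 133 TPM in the adults and at 100.7, 163 and 143 TPM in the nestlings. CNGB1 was at 0.337 TPM in adult 5 and 0.48 to 3.66 TPM in the other birds. ARMC4, CFAP206 and TEKT4, which encode proteins of motile cilia and were picked with their values known, were at 0.417, 0.6 and 1.95 TPM in adult 5 and at 21.5 TPM or more in each other bird. Adult 5 also held the lowest value in 72 of the 99 genes of at least 10 TPM whose minimum was above 0 but under 5% of the mean. Their part in the 10 zeros was not tested. Unlike in nestling 2 of *N. nycticorax*, the log2 ratio of last to first exon was 0.81 in adult 5, against 0.64 to 0.79 in the other *E. garzetta*. Without adult 5, 17 genes of *E. garzetta* met the rule, 15 of them among the 26.

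Zero-listed genes were short in both species. Their median coding length was 384 bases in *N. nycticorax*, against 1035 bases in the 8855 other genes of at least 10 TPM, and 286.5 bases in *E. garzetta*, against 1133 bases. Genes under 300 coding bases made up 34.2% of them against 6.17% in *N. nycticorax*, and 57.7% against 6.18% in *E. garzetta*. The median number of exons was 3 against 6 and 2 against 8. Genes with 1 exon were common only in *E. garzetta*, with 11 of 26 (42.3%) against 6.86%, whereas in *N. nycticorax* there was 1 of 38 (2.63%) against 5.54%. That gene was NheS0013g044.

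They also lay nearer the limit of 10 TPM than other genes, with a median mean of 15.5 TPM against 37.6 TPM in *N. nycticorax* and 18.6 TPM against 35.8 TPM in *E. garzetta*. A short or weakly expressed gene receives fewer reads, and no test over genes was made of these features, which are not independent of each other. The genes were spread over the genome. The 38 lay on 34 scaffolds, of which 31 held a single one, and the 26 lay on 19 scaffolds, of which 15 held a single one. In *N. nycticorax* 4 genes (10.5%) were the only gene on their scaffold, against 3.14% of the others, and the nearest gene was at a median of 15998 bases against 8255 bases. In *E. garzetta* no zero-listed gene was alone on its scaffold, against 1.29%. The nearest gene was at a median of 5618 bases against 7597 bases, but the 8 genes that overlap another count as 0 bases there. This distance is therefore not separate from the overlap.

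**Figure D5:**
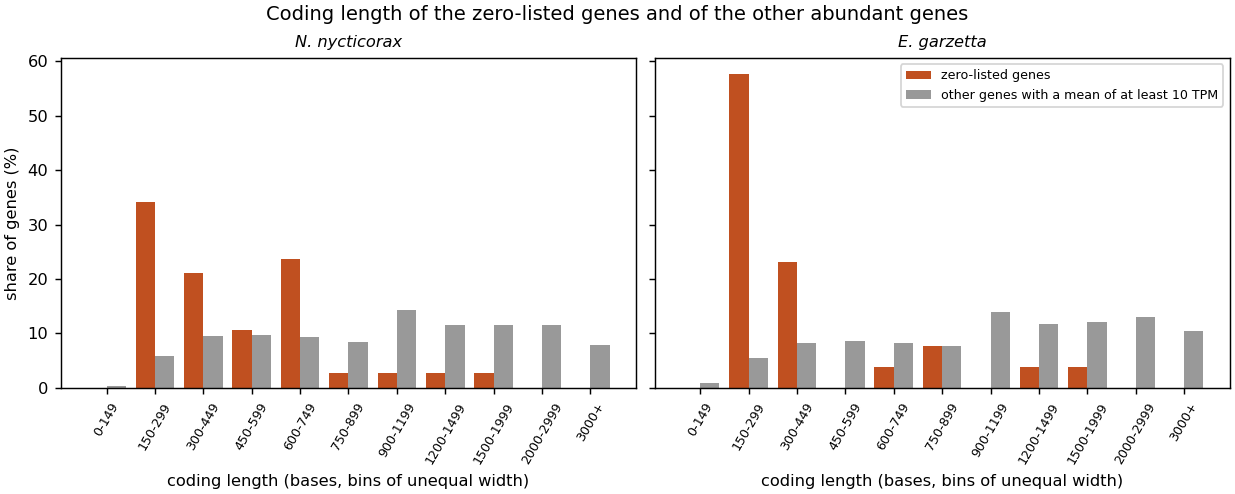
Share of genes in percent by coding length in bases (bins of unequal width) for the zero-listed genes (orange) and the other genes averaging 10 TPM or more (grey), in *N. nycticorax* (left) and *E. garzetta* (right). Zero-listed genes fill the short bins, with 34.2% and 57.7% of them under 300 bases against 6.17% and 6.18% of the others.

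Adults were set beside nestlings in each species. In *N. nycticorax* zeros fell on adults alone in 6 genes, on nestlings alone in 29 and on both stages in 3. In *E. garzetta* the numbers were 17, 5 and 4. Counted by bird, 4, 4 and 5 genes were at 0 in adult *N. nycticorax* and 8, 25 and 3 in nestlings, or 4.33 ± 0.577 in adults and 12 ± 11.5 in nestlings (SD, n = 3 each). The difference of -7.67 genes became -1.5 without nestling 2. In adult *E. garzetta* 6, 12 and 6 genes were at 0 and in nestlings 2, 5 and 4, or 8 ± 3.46 in adults and 3.67 ± 1.53 in nestlings (SD, n = 3 each). Without adult 5 the difference of 4.33 genes became 1.83. These counts come from the zeros that chose the genes, so no test is given for them. Over all genes of *N. nycticorax*, 883, 882 and 854 were at 0 in adults 4, 5 and 6 and 1005, 1033 and 719 in nestlings 1, 2 and 3, so that nestling 2 was close to nestling 1. Over all genes of *E. garzetta*, 2962, 3354 and 3063 were at 0 in the adults and 3242, 3278 and 2603 in the nestlings, and the stages overlapped in both species.

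In level, no zero-listed gene passed the threshold between the stages. The limma test used log2(TPM + 0.1), and its p-values were adjusted over all genes tested by the Benjamini-Hochberg method. In *N. nycticorax* 0 of 38 and in *E. garzetta* 0 of 26 had an adjusted p under 0.05, and the background was 0% of 13042 and 0% of 14960 genes. At an unadjusted limma p under 0.05 there were 5 of the 38 (13.2%) beside 7.08% of all genes (924), and 2 of the 26 (7.69%) beside 2.33% (348). The TPM values tested are those that chose the genes, so these numbers are shaped by the rule and are a description. The smallest adjusted p was 0.224, for NheS2477g001, at 0 in all adults. NheS0688g001 followed with an adjusted limma p of 0.548 (log2 fold change of adult over nestling 6.47, SE 1.48), and NheS1682g001 with 0.573 (5.87, SE 2.11). In *E. garzetta* the smallest limma p belonged to Ega_R015488 (7.99, SE 2.96), Ega_R007851 (-4.23, SE 1.62) and Ega_R014907 (-4.53, SE 1.96), each with an adjusted p of 0.965. For Ega_R015488 the partner on the other strand, Ega_R015489, was high where it was at 0.

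One gene of each species passed when a single bird was left out. Without nestling 1, NheS0652g002 had an adjusted limma p of 0.00366, and nestling 1 was the only nestling at 0 in that gene. Without nestling 1 of *E. garzetta*, Ega_R015488 had an adjusted limma p of 0.000453, and nestling 1 was the only nestling above 0. In these fits 6 of 13008 genes of *N. nycticorax* and 1 of 14894 genes of *E. garzetta* passed. Both p-values rest on the TPM values that chose the genes and on leaving out the bird that differed from its stage. They are a description and no evidence of a stage difference.

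As a description of the list, the median log2 fold change of adult over nestling was 2.84 over all 38 in *N. nycticorax*, beside 0.45 over all genes tested, with 28 genes higher and 10 lower in adults. It was also 2.84 with the 3 genes at 0 in a whole stage set to the floor of 3 read equivalents over that stage. Each of these 3 genes stayed on its side of the median, so that this setting could not move it. Without nestling 2 the median was 0.53. A smaller pseudocount of 0.01 TPM gave 3.95, whereas 1 TPM gave 1.73. Since 22 of the 38 genes were chosen through a 0 in nestling 2 alone, the rule itself bears on this median. Over the 26 genes of *E. garzetta* it was -0.85, beside -0.14 over all genes, with 7 higher and 19 lower in adults, and 0.068 without adult 5, with 13 higher and 13 lower. The smaller pseudocount gave -1.87 (5 higher and 21 lower) and the larger one -0.29 (10 higher and 16 lower). Here 10 of the 26 genes were chosen through a 0 in adult 5 alone. Every adult lay above every nestling in 9 of the 38 genes (23.7%, against a background of 15.9%) and below in 1 (2.63%, against 3.86%). In *E. garzetta* this was so in 0 of the 26 genes in either direction, against 1.89% above and 5.64% below. The rule bears on these shares too, since a gene at 0 in an adult cannot have every adult above every nestling. In *E. garzetta* 17 genes had zeros in adults alone and 4 in both stages, and in *N. nycticorax* 29 had them in nestlings alone. The shares are thus a description, and the backgrounds were not chosen by zeros.

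The limit of 10 TPM cut through a continuous range. Just inside it lay NheS0254g016, with a mean of 10.03 TPM and a 0 in nestling 2, NheS0029g062, with 10.1 TPM and a 0 in adult 5, and, in *E. garzetta*, Ega_R006555 and Ega_R014819, with 10.2 and 10.6 TPM and a 0 in adult 5. Just outside lay NheS0303g009, with 9.44 TPM and a 0 in nestling 2, NheS0895g003, with 9.25 TPM and a 0 in nestling 1, Ega_R012834, with 9.65 TPM and a 0 in adult 5, and Ega_R011877, with 9.42 TPM and a 0 in nestling 2. In *E. garzetta* the genes averaging 10 TPM or more with the lowest minimum above 0 relative to their mean were Ega_R009733, at 2.53, 0.0179 and 49.1 TPM in the adults and 0.133, 62.7 and 6.3 TPM in the nestlings, and Ega_R000026, at 1.19, 324 and 126 TPM in the adults and 279, 0.413 and 1.08 TPM in the nestlings. Ega_R009733 was highest in adult 6 and nestling 2, as was Ega_R007179, and Ega_R000026 was high in adult 5 and nestling 1, as was Ega_R011622.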

How the data were processed

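Reads were cleaned with Trimmomatic and aligned with HISAT2 by the authors, and StringTie 2.1.4 then quantified annotated transcripts only, bird by bird. For HISAT2 no version is given in the sources used here. The paper names an assembly of each species and states that reads were mapped to the genomes of both. The deposited records state no build. The levels are the TPM that the authors deposited. The FPKM that the authors deposited were not used. The coverage that the authors deposited is a signal per base without normalization for depth, and it gave the read equivalents and the exon ratios. Positions are those of the deposited gene models, whose coding lengths were multiples of 3 in 100% (*N. nycticorax*) and 92.6% (*E. garzetta*) of genes.

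The genes and the lists were chosen with earlier results of these data known. Identifiers were left out if the paper's tables hold them, which applied to 0 genes. Overlap needed at least 1 shared base between gene spans. Symbols of *E. garzetta* came from a match of both gene ends, with or without the 3 bases of the stop codon, to a RefSeq table that gives no scaffold names: 457 of 16585 genes matched uniquely, and for the 24 that the paper also names the symbol was the same. No symbol was taken for *N. nycticorax* except from the paper's tables.

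Adults and nestlings were compared within a species over genes averaging 0.02 TPM or more, all 38 and 26 zero-listed genes included, with limma 3.58.1 in R 4.3.3 (lmFit, eBayes with a trend), a pseudocount of 0.1 TPM and a threshold of 0.05. Fold changes on this scale understate those of low genes and depend on the pseudocount for genes at 0. The fit was tested on simulated data drawn from a normal distribution on the log scale. Such data hold no exact zeros, so that test does not cover genes at 0 in some birds. The permutation test laid out for the number of genes at 0 per bird is not reported, because the rule used the zeros. Python 3.11.15, numpy 2.4.6, pandas 2.3.3 and matplotlib 3.10.9 made the tables and plots. Each library is 1 bird.

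Named in each species were the 10 genes with the highest mean, up to 8 that overlap a gene on the other strand, up to 8 within 3 genes of another, the 3 with the smallest limma p, the 3 longest, the 2 nearest each side of the limit of 10 TPM, the 2 abundant genes with the lowest minimum above 0 relative to the mean, and neighbours or partners set beside them. Other genes named were chosen after their values were seen. Alternatives covered the limit on the mean, the definition of 0, the pseudocount, the filter, a rescaling by the median ratio, the overlap and leaving out each bird.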

Additional observations from a re-analysis of the deposited data

How the results depend on the processing

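The numbers of zero-listed genes depended on the limits. In *N. nycticorax* 68 genes met the rule at a mean of at least 5 TPM, 14 at 20 TPM, 83 with the highest bird at 10 TPM or more, and 64 with fewer than 3 read equivalents taken as 0. In *E. garzetta* the numbers were 59, 12, 66 and 50. Leaving out each bird in turn gave 15 to 37 and 17 to 27 genes. With no filter on low values, limma called 1 gene among all genes in each species, none of them zero-listed. Leaving out each bird gave 0 to 6 calls among all genes and 0 to 1 among zero-listed genes in *N. nycticorax*, and 0 to 1 in both in *E. garzetta*. The median log2 fold change of adult over nestling ranged between 0.53 and 4.15 in *N. nycticorax* and between -2.08 and 0.068 in *E. garzetta* when single birds were left out, and its sign turned only without adult 5 of *E. garzetta*. Without nestling 1 of *E. garzetta*, the log2 fold change of Ega_R015488 was 12.06. The cause of these shifts was not tested. The difference in genes at 0 per bird kept its sign under every alternative run, between -15.7 and -1.5 genes in *N. nycticorax* and between 1.83 and 8 genes in *E. garzetta*. The smallest differences, -1.5 and 1.83 genes, came without nestling 2 and without adult 5. Each alternative chose its genes by their zeros again, so the kept sign is a description and no evidence of a stage difference. All 8 overlaps in *E. garzetta* also held between exons, which was fixed in advance because these genes and their partners have a single exon. In *E. garzetta* 9 genes lay within 1000 bases of a gene on the other strand. No paired analysis was possible because the nestlings and adults were different birds, the nestlings from separate nests and the adults from another place.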
